A study of Mus musculus with 2 samples.

Results

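Bone morphogenetic protein (BMP) ligands, antagonists and readouts were followed across the cell classes of mouse lung mesenchyme after bleomycin or saline. The members were 9 of the 32285 genes listed in both libraries, taken by symbol: the ligands Bmp2, Bmp3, Bmp4, Bmp5 and Bmp7, the secreted modulators Grem1 and Bmper, the membrane decoy Bambi and the target gene Id1. All 9 reached at least 10 CPM (counts per 1000000 UMIs, a UMI being 1 tagged transcript molecule) in 1 or both libraries over all mesenchymal cells.

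BMPs are secreted dimers of the TGF-beta superfamily that bind paired type I and type II receptors, which then phosphorylate the receptor Smads and switch on targets such as the Id genes. Gremlin 1 (Grem1) is a cystine-knot protein that binds BMP2, BMP4 and BMP7 outside the cell and keeps them from their receptors. In the lung, BMP signals shape branching during development and act on stem cells of airway and alveolus in the adult.

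The bleomycin library and the saline library each held tdTomato-labelled lung cells from mice of the genotype Lepr-CreERT2;Rosa26-tdtomato at 8 to 10 weeks of age. Bleomycin damages the epithelium of the alveoli and serves as a common mouse model of scarring in the lung. In both groups a tamoxifen-dependent Cre made from the leptin receptor gene (Lepr) turned on tdTomato permanently, so a labelled cell keeps its label after Lepr itself falls, and cells without a Lepr history are not covered. Live tdTomato-positive cells without CD45, EpCAM or CD31 were sorted, which sets aside leukocytes, epithelium and endothelium. The sources used here do not give how many mice made up a library, the dose, the collection day or when tamoxifen was given.

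Each treatment had 1 library, so treatment and library cannot be told apart, no test between treatments was possible and no p-value is given. Intervals in parentheses are exact 95% intervals and cover counting error only. The bleomycin library held 134732429 UMIs in 10138 barcodes (median 11662 per cell) and the saline library 60937359 UMIs in 8396 barcodes (median 6762), with 25 barcodes in common. Clusters were named from marker genes that included none of the members, and the members were also left out of the clustering. The collagens Col1a2 and Col3a1 were at 4143 and 4439 CPM in bleomycin mesenchymal cells, against 1423 and 1690 CPM in saline cells, while Ptprc, Epcam, Pecam1 and Cdh5 were at most 1.44 CPM in either library.

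The makeup of the libraries differed widely, and this bears on every value summed over all cells. Of 9627 bleomycin mesenchymal cells, 39.2% were inflammatory fibroblast-like (3774, with Saa3 and Lcn2 among the leading genes), 21.5% fibrotic fibroblast-like (2073, with Spp1 and Cthrc1 among them) and 8.78% alveolar fibroblast-like (845 cells). Of 8116 saline mesenchymal cells, 71.8% were alveolar fibroblast-like (5827 cells), 0.973% inflammatory fibroblast-like (79 cells) and 0.0986% fibrotic fibroblast-like (8 cells). The adventitial fibroblast-like class made up 13.1% of bleomycin and 17.1% of saline cells. Peribronchial fibroblast-like cells, whose marker list also holds ductal myofibroblast genes, made up 6.11% of bleomycin and 5.00% of saline cells. Smooth muscle-like cells made up 5.54% of bleomycin and 4.46% of saline cells, and proliferating-like cells 5.74% of bleomycin and 0.616% of saline cells. The second name of the smooth muscle class was pericyte (median log2 fold 2.25, beside 3.47 for smooth muscle). A finer clustering (Leiden resolution 1) put 447 bleomycin and 226 saline cells of it in a cluster led by Actc1 and Myh11. Another 85 bleomycin and 135 saline cells lay in a cluster led by Itih4, so its makeup differed between libraries. Of the saline alveolar cells, 2653 were in a cluster led by Tpm3-rs7 and Cxcl9 whose alveolar name was a close one. Its median log2 fold was 0.66 over the alveolar and 0.55 over the interferon list, and the like cluster took the interferon name with called doublets kept, without the highest doublet scores and with pathway genes kept for clustering. With 8 saline cells, the fibrotic class is described in the bleomycin library alone.

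Summed over all mesenchymal cells, Grem1 was the 1 member that met the size rule as higher in bleomycin, and Bmp3 and Bmp4 met it as lower. The size rule asked for a difference of 2-fold or more, a level of 10 CPM or more on the higher side and an interval of the ratio clear of 1. Of 8020 genes measured at that level, 446 were called higher (5.56%) and 474 lower (5.91%), or 11.5% in either direction, against 3 of the 9 members. The median log2 ratio of the 9 members was -0.65, beside -0.04 for all measured genes.

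Grem1 had 5499 UMIs in the bleomycin library and 47 in the saline library. Its level was 42.2 CPM (41.1 to 43.3) in bleomycin cells and 0.797 CPM (0.586 to 1.06) in saline cells, a ratio of 52.95 (39.8 to 72.2). Bmp3, an atypical ligand that opposes the bone-forming BMPs, was at 46.0 CPM in bleomycin and 136 CPM in saline cells, a ratio of 0.338 (0.326 to 0.349). Bmp4, a main BMP of lung mesenchyme, was at 45.9 CPM in bleomycin and 94.9 CPM in saline cells, a ratio of 0.484 (0.466 to 0.502). Bmp4 sat close to the limit of the rule, and it was no longer 2-fold apart when every cell was thinned to 2000 UMIs (log2 ratio -0.97) or when the proliferating class was left out (-0.99).

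The other members moved by less than 2-fold. Bmp2 was at 13.9 CPM in bleomycin and 21.7 CPM in saline cells, and Bmp5 was at 96.1 CPM in bleomycin and 151 CPM in saline cells. Bmp7 was at 7.42 CPM in bleomycin and 13.1 CPM in saline cells. All 5 ligands were thus lower in the bleomycin library, at ratios between 0.338 and 0.640, although Bmp7 was at 1.02 once the mixture of cells was evened out as described next. Bambi, a pseudoreceptor that has no kinase domain and blunts BMP and TGF-beta signalling, was at 82.0 CPM in bleomycin and 146.5 CPM in saline cells. Bmper, a secreted BMP-binding protein of the chordin kind, was at 50.5 CPM in bleomycin and 32.3 CPM in saline cells, a ratio of 1.56 (1.48 to 1.64). Id1, an inhibitor of basic helix-loop-helix factors, was at 55.5 CPM in bleomycin and 38.6 CPM in saline cells, a ratio of 1.44 (1.37 to 1.51).

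**Figure D1:**
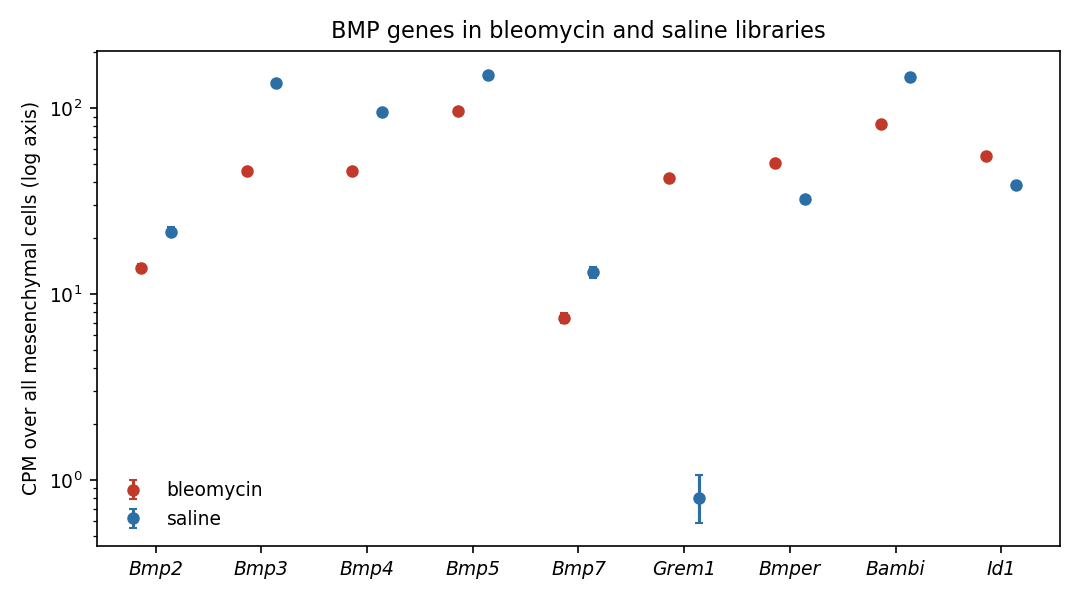
Level of each BMP gene in CPM (log axis) over all mesenchymal cells of the bleomycin library (red) and the saline library (blue), 1 library each. Bars are exact 95% Poisson intervals and are mostly smaller than the points. Grem1 has the widest gap, at 42.2 CPM in bleomycin and 0.797 CPM in saline cells, and all 5 ligands lie lower in bleomycin, Bmp7 only before weighting to the saline mixture.

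These sums mix level and makeup. When the bleomycin clusters were weighted to the saline mixture of UMIs, no member met the rule, against 2.04% of 7881 measured genes that were still at least 2-fold apart. Grem1 was then at 7.93 CPM in bleomycin cells, a ratio of 9.95, and so fell short of the 10 CPM asked for. No interval was computed for weighted values. The Tpm3-rs7-led alveolar cluster, which held 2653 saline cells, entered at 9.56 CPM of Grem1, on 18 bleomycin UMIs. Of these, 17 came from 6 cells, so the weighted Grem1 level leans on few cells. Bmp3 and Bmp4 were at ratios of 0.739 and 0.784 under that weighting, Bmp5 at 0.723, Bmp2 at 0.694 and Bambi at 0.657. Bmp7 was at 1.02, Bmper at 0.926 and Id1 at 0.882, each on the other side of 1 from its unweighted ratio. Levels by class, given next, describe where each gene sat and are no test between classes.

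**Figure D2:**
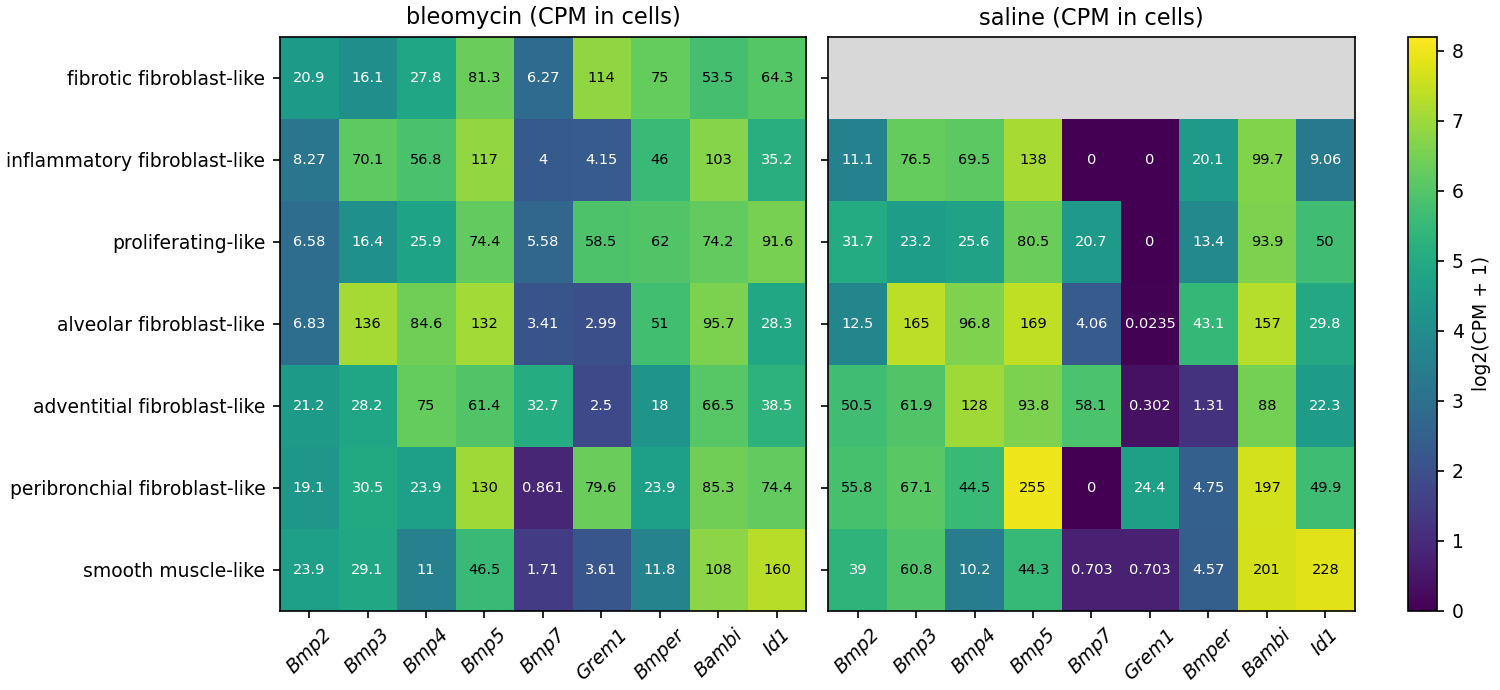
Level of each BMP gene in CPM, printed in each cell and coloured on a log2(CPM + 1) scale, by cell class in the bleomycin library (left) and the saline library (right). The fibrotic class is grey in saline, where it had 8 cells. Grem1 is at 114 CPM in bleomycin fibrotic cells and at 24.4 CPM in saline peribronchial cells.

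Within classes, 54 pairs of a member and a class could be compared, in the 6 classes with at least 50 cells of each library. The rule called 8 pairs higher and 8 lower in bleomycin. In peribronchial cells 2 of 9 members were higher and 3 lower, beside 6.49% and 6.73% of all genes measured there. Proliferating cells had 2 higher and 2 lower, beside 3.90% and 8.07%. Adventitial cells had 1 higher and 2 lower, beside 3.25% and 3.71%. Smooth muscle cells had 1 higher and 1 lower, beside 4.28% and 2.38%, and inflammatory cells had 2 higher and 0 lower, beside 3.82% and 2.72%. In alveolar cells, the bulk of the saline library, 0 of 9 members were called in either direction, beside 1.38% of all genes higher and 1.19% lower. Of the 16 calls, 12 were kept in all 3 other clusterings in which calls by class were compared. Those that were not are named with their values below. For the clusterings with a stricter cell filter and with called doublets kept, calls by class are not given here. The 79 inflammatory and 50 proliferating saline cells give their classes wide intervals. The proliferating class is set by cell cycle genes, and its second name by the marker rule was fibrotic fibroblast (median log2 fold 0.53). Saline had 8 fibrotic cells, so the cell types that cycle may differ between libraries, which was not tested.

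**Figure D3:**
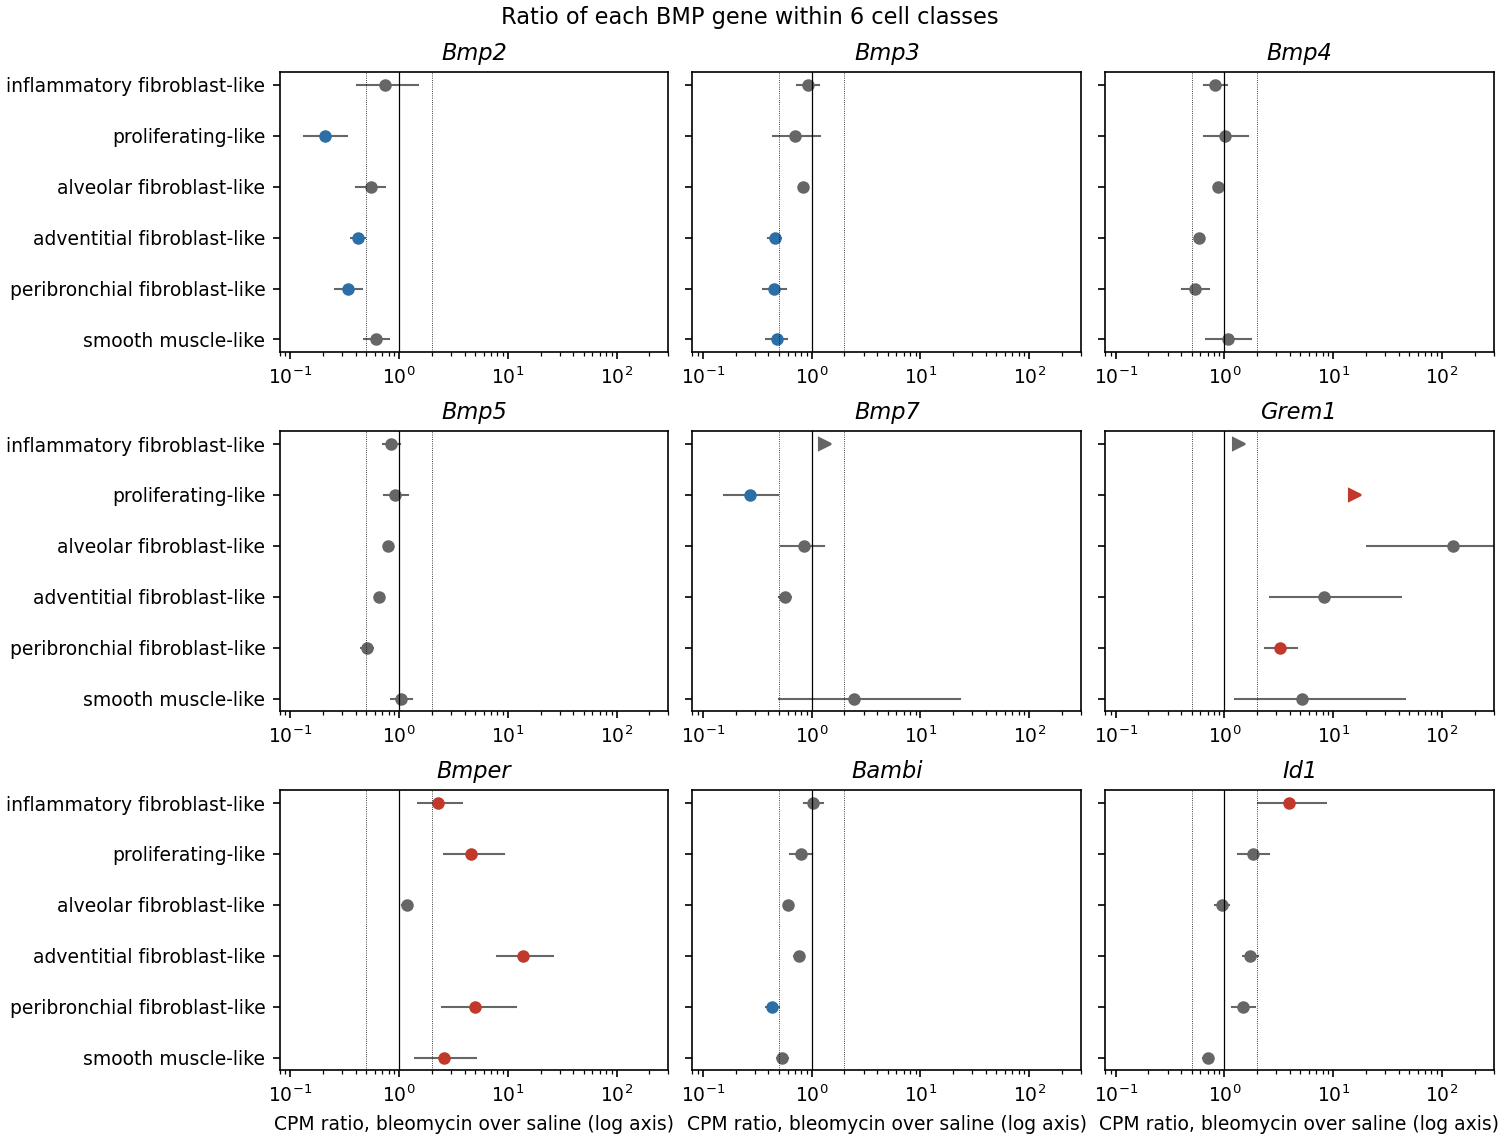
Ratio of CPM, bleomycin over saline (log axis), for each BMP gene within the 6 compared classes, with exact 95% intervals. Red points met the size rule as higher, blue points as lower and grey points not at all. Dotted lines mark 2-fold, and triangles are lower bounds where the saline class had 0 UMIs. Bmper is called higher in 5 classes, and Bmp2 and Bmp3 are called lower in 3 classes each.

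The secreted antagonist Grem1 sat in few classes. In the bleomycin library 72.5% of its UMIs came from fibrotic cells, 13.9% from proliferating cells and 8.40% from peribronchial cells. In the saline library 41 of its 47 UMIs (87.2%) came from peribronchial cells. Levels in bleomycin cells were 114 CPM (110.2 to 117) in the fibrotic class, 79.6 CPM (72.5 to 87.2) in the peribronchial class and 58.5 CPM (54.4 to 62.8) in the proliferating class, and these intervals did not overlap.

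The remaining bleomycin classes held far less Grem1. Inflammatory cells were at 4.15 CPM, smooth muscle cells at 3.61, alveolar cells at 2.99 and adventitial cells at 2.50, and neighbours in this order overlapped. All 4 lay below the 17.5 CPM (11.98 to 24.7) of a cluster led by the epithelial genes Scgb1a1 and Sftpc, which stands outside the mesenchyme. That level rests on few cells, as its 32 UMIs lay in 2.67% of 187 bleomycin cells before thinning. How much free RNA adds to the 4 classes was not tested. Grem1 was uneven inside the inflammatory class, where at Leiden resolution 1 a piece of 950 bleomycin cells was at 11.9 CPM (10.1 to 13.98) and a piece of 2045 at 0.902 CPM (0.583 to 1.33). The 950 cells lay in an unnamed cluster that also took fibrotic cells, while the 2045 kept the inflammatory name. Of the 21 Grem1 UMIs of bleomycin alveolar cells, 17 came from 6 cells that a finer clustering placed with interferon-responding cells.

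Between libraries, Grem1 met the rule in peribronchial and proliferating cells. Peribronchial cells were at 79.6 CPM in bleomycin (462 UMIs) and 24.4 CPM (17.5 to 33.0) in saline (41 UMIs), a ratio of 3.27 (2.37 to 4.61). Depth differed here, with a median of 8948 UMIs per bleomycin cell and 3362 per saline cell. Proliferating cells were at 58.5 CPM in bleomycin (765 UMIs) and had 0 UMIs in 50 saline cells, which makes the bleomycin level at least 16.0-fold higher when 3 counts are taken as the saline floor. In the remaining compared classes it stayed under 10 CPM in both libraries and so was not called. The ratio there was 8.29 (2.60 to 42.2) in adventitial cells, with 33 UMIs in bleomycin and 3 in saline, and 5.13 (1.24 to 45.5) in smooth muscle cells, with 19 UMIs in bleomycin and 2 in saline. In alveolar cells it was 127 (20.5 to 5262), with 21 UMIs in bleomycin and 1 in saline, and inflammatory cells had 211 UMIs in bleomycin and 0 in saline. The proliferating cells had the deepest profiles, with medians of 22336 UMIs in bleomycin and 18033 in saline cells, and may hold different cell types in each library. Doublets were not removed from the bleomycin library because the caller marked none, and both Grem1 calls were kept once the top 5% of doublet scores had been left out.

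Finer clustering split the peribronchial cells unevenly for Grem1. At Leiden resolution 1, 415 bleomycin and 332 saline cells kept the peribronchial name, at 57.5 CPM (50.5 to 65.3) in bleomycin and 10.8 CPM (5.76 to 18.5) in saline. Another 171 bleomycin and 74 saline cells formed a cluster that took the smooth muscle name, at 133 CPM (116 to 152) in bleomycin and 58.2 CPM (38.7 to 84.1) in saline. Bleomycin was higher in both pieces. The fibrotic cells split too, into 1446 bleomycin cells that kept the name at 141 CPM and 524 cells at 30.5 CPM (26.7 to 34.7). Those 524 lay in the unnamed cluster that also took inflammatory cells.

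Shares of cells with a Grem1 UMI were also highest in these classes in bleomycin, but with neighbours that overlapped. After each cell was thinned to 2000 UMIs, a Grem1 UMI was found in 242 of 2055 bleomycin fibrotic cells (11.8%, interval 10.4 to 13.2) and in 6.67% (4.71 to 9.11) of bleomycin proliferating cells. In peribronchial cells the share was 9.97% (7.66 to 12.7) in bleomycin and 1.77% (0.715 to 3.62) in saline. At 1000 UMIs per cell it was 4.43% (2.91 to 6.42) in bleomycin and 2.22% (1.02 to 4.17) in saline, with overlapping intervals. The epithelial cluster, where free RNA could show, had 3 of 156 bleomycin cells (1.92%, 0.398 to 5.52) and 0 of 99 saline cells, which allows a share of up to 3.03%. Median depth before thinning was 15157 UMIs in bleomycin fibrotic cells and 7342 in the bleomycin epithelial cluster. The saline peribronchial share is thus under what that cluster allows, although the saline peribronchial level of 24.4 CPM is above the upper limit of 5.70 CPM there. Without thinning, 28.6% of bleomycin fibrotic cells had a Grem1 UMI.

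**Figure D4:**
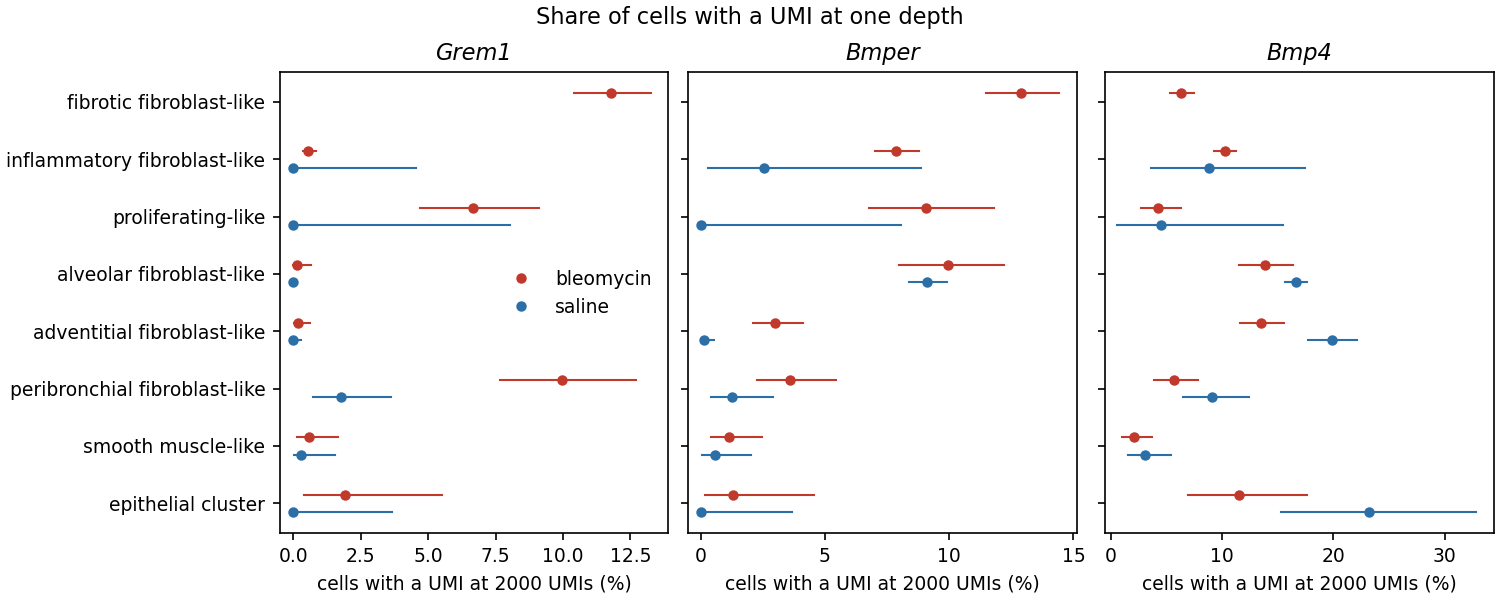
Share of cells with at least 1 UMI of Grem1, Bmper or Bmp4 after thinning to 2000 UMIs, by class, in bleomycin (red) and saline (blue), with exact 95% intervals. The bottom row is the cluster led by epithelial genes, outside the mesenchyme. Grem1 is found in 11.8% of bleomycin fibrotic cells and 9.97% of bleomycin peribronchial cells, against 1.77% of saline peribronchial cells.

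Grem1 and Bmp4 met the rule in opposite directions over all cells, and their upstream windows are shown for that reason. Each runs 5′ to 3′ on the gene's strand over the 250 bases before the start that RefSeq gives on GRCm38.p6. Grem1 lies on the minus strand with its window at chr2:113758649-113758898, and Bmp4 on the minus strand with its window at chr14:46390670-46390919. Capitals mark GGCGCC, a GC-rich palindrome found in BMP response elements, which was searched on both strands.
Grem1: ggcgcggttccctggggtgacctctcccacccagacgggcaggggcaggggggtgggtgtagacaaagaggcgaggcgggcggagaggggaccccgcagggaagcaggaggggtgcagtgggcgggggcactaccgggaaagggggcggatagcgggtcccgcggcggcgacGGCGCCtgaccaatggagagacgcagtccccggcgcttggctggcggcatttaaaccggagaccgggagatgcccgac
Bmp4: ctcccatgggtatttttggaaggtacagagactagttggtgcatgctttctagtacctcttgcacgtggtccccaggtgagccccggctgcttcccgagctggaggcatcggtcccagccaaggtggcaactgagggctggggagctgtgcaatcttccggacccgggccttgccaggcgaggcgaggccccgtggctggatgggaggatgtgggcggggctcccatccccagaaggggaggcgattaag
The Grem1 window is 72.0% G or C and holds 1 match, at position -78 counted from the start. The Bmp4 window is 63.2% G or C and holds none. The motif is in 3149 of 32851 windows of that length (9.59%), so a match is common. The Smad palindrome GTCTAGAC, which does not overlap it, is in 55 windows (0.167%) and in none of the 4 member windows matched by symbol (Grem1, Bmp4, Bmp5 and Bmper).

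Bmper was the member called in most classes. It met the size rule as higher in bleomycin in 5 of the 6 compared classes. In the sixth, alveolar cells, it was at 51.1 CPM in bleomycin and 43.2 CPM in saline, a ratio of 1.18 (1.05 to 1.33). In saline, 96.4% of its UMIs came from alveolar cells, while in bleomycin 40.0% came from fibrotic cells, at 74.96 CPM, and 35.6% from inflammatory cells, at 46.1 CPM. Saline adventitial cells held 1.31 CPM.

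The widest Bmper gap was in adventitial cells. They were at 18.0 CPM (15.8 to 20.5) in bleomycin and 1.31 CPM (0.696 to 2.24) in saline, a ratio of 13.8 (7.91 to 26.3). It lay mainly in the cluster led by Pi16, at 26.0 CPM in bleomycin (222 UMIs) and 1.56 CPM in saline (5 UMIs). In the cluster led by Aqp1, Bmper was at 3.43 CPM in bleomycin (16 UMIs) and 1.19 CPM in saline (8 UMIs). After thinning, 3.01% of bleomycin and 0.152% of saline adventitial cells had a Bmper UMI, and the epithelial cluster had it in 1.28% of 156 bleomycin cells and 0 of 99 saline cells.

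Other Bmper calls were smaller. Proliferating cells were at 62.0 CPM in bleomycin and 13.4 CPM in saline, a ratio of 4.62 (2.57 to 9.29). Peribronchial cells were at 23.9 CPM in bleomycin and 4.75 CPM in saline, a ratio of 5.04 (2.49 to 11.9). Both calls were kept in the 3 other clusterings compared by class. The inflammatory ratio of 2.29 (1.48 to 3.75) was 1.77 without the 5% highest doublet scores and 1.73 when the pathway genes were kept for clustering. The smooth muscle ratio of 2.58 (1.40 to 5.11) was 1.32 without the 5% highest doublet scores.

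Within the alveolar class the Bmper level followed the cluster. The class is spread unevenly, with most bleomycin cells (471) in a cluster led by Ces1d, where saline had 21, and the saline cells in clusters led by Slc7a10 (3153) and Tpm3-rs7 (2653). In saline, Bmper was at 76.4 CPM (72.5 to 80.3) in the Slc7a10 cluster and 14.6 CPM (13.0 to 16.2) in the Tpm3-rs7 cluster. In bleomycin it was at 47.9 CPM in the Slc7a10 cluster and 23.4 CPM in the Tpm3-rs7 cluster, against 63.4 CPM in the Ces1d cluster.

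Among the ligands, Bmp2 was called lower in 3 classes. Proliferating cells were at 6.58 CPM in bleomycin and 31.7 CPM in saline, a ratio of 0.208 (0.133 to 0.335). Peribronchial cells were at 19.1 CPM in bleomycin and 55.8 CPM in saline, a ratio of 0.342 (0.258 to 0.456). Adventitial cells were at 21.2 CPM in bleomycin and 50.5 CPM in saline, a ratio of 0.420 (0.362 to 0.487), which was 0.502 when the pathway genes were kept for clustering. It was 0.380 in the Pi16-led cluster and 0.653, not called, in the Aqp1-led cluster, which held 407 of the 502 saline UMIs and a smaller part of the bleomycin cells. The saline order ran from peribronchial through adventitial, smooth muscle and proliferating cells, each overlapping the next, down to alveolar (12.5 CPM) and inflammatory cells (11.1 CPM). In bleomycin, smooth muscle, adventitial, fibrotic and peribronchial cells lay together between 19.1 and 23.9 CPM.

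Bmp3 was highest in alveolar cells, at 136 CPM (127 to 145) in bleomycin and 165 CPM (161 to 169) in saline. Inflammatory cells came next, at 70.1 CPM in bleomycin and 76.5 CPM in saline. In these classes, which had the highest Bmp3 levels in both libraries, the ratios were 0.822 (0.768 to 0.880) in alveolar and 0.916 (0.730 to 1.17) in inflammatory cells. It was called lower in adventitial cells (28.2 CPM in bleomycin, 61.9 in saline), peribronchial cells (30.5 in bleomycin, 67.1 in saline) and smooth muscle cells (29.1 in bleomycin, 60.8 in saline), at ratios of 0.455, 0.454 and 0.478. Inside the adventitial clusters the ratio was 0.485 in the Aqp1-led and 0.741 in the Pi16-led cluster, so the class ratio lay below both, and at resolution 1 it was 0.502 and 1.13 in the adventitial clusters, neither of them called. The smooth muscle ratio was 0.569 at resolution 1. Bleomycin fibrotic cells, at 16.1 CPM, and proliferating cells, at 16.4 CPM, had the lowest levels in that library.

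Bmp4 was called in no class. It was at 84.6 CPM (77.9 to 91.7) in bleomycin and 96.8 CPM (93.8 to 99.8) in saline alveolar cells. Adventitial cells were at 75.0 CPM (70.4 to 79.8) in bleomycin and 128 CPM (122 to 136) in saline, a ratio of 0.584 (0.537 to 0.635). The Aqp1-led adventitial cluster was the higher of the pair in both libraries, at 104 CPM in bleomycin and 155 CPM in saline, while the Pi16-led cluster was at 59.1 CPM in bleomycin and 73.5 CPM in saline. Bleomycin fibrotic cells held 27.8 CPM of Bmp4, close to proliferating (25.9) and peribronchial cells (23.9), and smooth muscle cells had the lowest level in each library, at 11.02 CPM in bleomycin and 10.2 CPM in saline. The epithelial cluster was itself at 72.3 CPM in bleomycin and 100.4 CPM in saline for Bmp4, so it gives no background for this gene. In the annotation Bmp4 overlaps Gm15217 and Gm15222 on the other strand, and Bmp5 overlaps Gm47723 on its own strand, so reads of these pairs may not be told apart fully.

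Bmp5, a ligand of the BMP7 subfamily, was broad. It was at 132 CPM in alveolar, 129.7 in peribronchial and 117 in inflammatory bleomycin cells, where alveolar and peribronchial overlapped. In saline it was highest in peribronchial cells, at 255 CPM (232 to 281), followed by alveolar cells at 169 CPM. The peribronchial ratio of 0.508 (0.450 to 0.573) fell just short of the 2-fold limit, and the share of thinned peribronchial cells with a Bmp5 UMI was 22.2% in bleomycin and 38.0% in saline. Smooth muscle cells, at 46.5 CPM in bleomycin and 44.3 CPM in saline, had a ratio of 1.05 (0.844 to 1.31).

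Bmp7 was concentrated in adventitial cells, which held 44.7% of its bleomycin UMIs and 75.1% of its saline UMIs. The class was at 32.7 CPM (29.7 to 36.0) in bleomycin and 58.1 CPM (53.5 to 63.1) in saline. Inside it nearly all lay in the Aqp1-led cluster, at 89.2 CPM (80.9 to 98.2) in bleomycin and 85.1 CPM (78.3 to 92.4) in saline, a ratio of 1.05 (0.922 to 1.19). The Pi16-led cluster was at 1.87 CPM in bleomycin and 1.56 CPM in saline. Of the adventitial cells, the Aqp1-led cluster held 451 in bleomycin and 830 in saline, and the Pi16-led cluster held 810 in bleomycin and 554 in saline. In this clustering the class ratio of 0.563 (0.496 to 0.639) thus lay below the ratio inside either cluster, which was 1.20 (0.421 to 4.20) in the Pi16-led one. The division moved with the settings. Without the highest doublet scores the Aqp1-led cluster held 202 bleomycin and 968 saline cells. With the stricter cell filter the like cluster, led by Rbp4 and Adh7, held 64 bleomycin and 1226 saline cells. Bmp7 levels inside those clusters are not given here. Bmp7 was called lower in proliferating cells, at 5.58 CPM in bleomycin (73 UMIs) and 20.7 CPM in saline (17 UMIs), a ratio of 0.269 (0.157 to 0.487).

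Bambi was widespread and met the rule in peribronchial cells, at 85.3 CPM in bleomycin and 197 CPM in saline, a ratio of 0.434 (0.377 to 0.4999). Smooth muscle cells were at 108 CPM in bleomycin and 201 CPM in saline, a ratio of 0.538 (0.478 to 0.605). Alveolar cells were at 95.7 CPM in bleomycin and 157 CPM in saline, a ratio of 0.610 (0.563 to 0.661). Inflammatory cells were level within counting error, at 103 CPM in bleomycin and 99.7 CPM in saline (ratio 1.03, 0.846 to 1.27). Bambi UMIs were clumped: at 2000 UMIs per cell a single inflammatory bleomycin cell held up to 12 and a single alveolar saline cell up to 16, and the variance over the mean was 2.57 and 2.41 in these classes.

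Id1 was highest in smooth muscle cells, at 160.3 CPM (149.7 to 171) in bleomycin and 228 CPM (211 to 246) in saline, a ratio of 0.703 (0.634 to 0.780). In inflammatory cells it met the rule as higher, at 35.2 CPM (33.6 to 36.9) in bleomycin and 9.06 CPM (4.14 to 17.2) in saline, a ratio of 3.89 (2.04 to 8.51) that rests on 9 saline UMIs. The ratio was 2.44 at resolution 1 and 2.10 when the pathway genes were kept for clustering, and the call was kept in both. It lay above 1 without meeting the rule in proliferating (1.83), adventitial (1.72) and peribronchial cells (1.49). Alveolar cells were at 28.3 CPM in bleomycin and 29.8 CPM in saline. Bleomycin fibrotic cells were at 64.3 CPM, between peribronchial (74.4) and adventitial cells (38.5), with no overlap of intervals between neighbours.

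Members were then compared inside single bleomycin fibrotic cells at 2000 UMIs, split by whether a Grem1 UMI was found. Bmp2 was found in 7.02% (4.15 to 11.01) of the 242 cells with a Grem1 UMI and in 2.32% (1.68 to 3.12) of the 1813 cells without. Bmp4 was found in 2.07% (0.674 to 4.76) of cells with a Grem1 UMI and in 6.90% (5.77 to 8.16) of cells without. The other 6 genes had overlapping intervals, with Bmp5 at 17.8% of cells with and 14.7% of cells without a Grem1 UMI, and Id1 at 13.2% of cells with and 11.8% of cells without. In bleomycin inflammatory, peribronchial and proliferating cells, 0 of 8 genes had intervals apart. Only 21 inflammatory, 58 peribronchial and 36 proliferating cells had a Grem1 UMI. Intervals on so few cells are wide and cannot tell whether the fibrotic pattern is absent there. All cells compared share 1 library and are not replicates. The class is itself mixed: at resolution 1, the cluster that kept the fibrotic name was at 23.6 CPM of Bmp2 and 21.9 CPM of Bmp4 in bleomycin, and the unnamed cluster, which is lower in Grem1, at 10.4 CPM of Bmp2 and 50.9 CPM of Bmp4. Of the 1508 bleomycin cells of that unnamed cluster, 950 belong to the inflammatory class and 524 to the fibrotic class. Whether the split by Grem1 follows the division at resolution 1 was not tested.

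**Figure D5:**
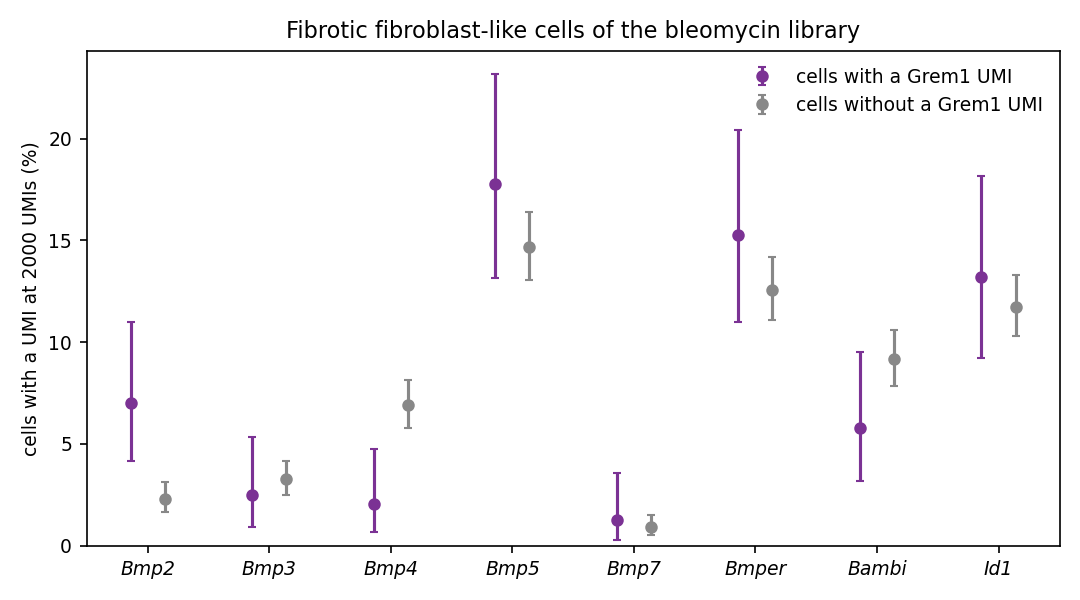
Share of bleomycin fibrotic fibroblast-like cells with a UMI of each other member, at 2000 UMIs per cell, in the 242 cells with a Grem1 UMI (purple) and the 1813 cells without (grey), with exact 95% intervals. Bmp2 is found more often and Bmp4 less often beside Grem1, and the other 6 genes overlap. At resolution 1 the class divides between clusters that differ in all 3 of these genes, the unnamed one made up mostly of inflammatory-class cells.

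Patterns were compared over 17 sums of a class and a library with at least 50 cells. These sums are not mesenchymal alone. They include the set-aside epithelial cluster of both libraries and the mesothelial and plasma cell clusters of bleomycin. The genes whose pattern was most like that of Grem1 were Megf10 (Pearson r 0.947), Baalc (0.939), Lrrc15 (0.926), Tmeff1 (0.919) and Wnt10a (0.904), among 11387 genes on the log2(CPM + 10) scale. For Bmp4, genes with a like pattern included Sptbn1 (0.901), Isg20 (0.898), Cd47 (0.880) and Thbd (0.878). The sums of a library share its depth and preparation, so these values describe the pattern and are no test. Grem1 itself had r of -0.35 with Bmp4, -0.44 with Bmp3, 0.43 with Bmper and 0.02 with Bmp2.

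Other genes of the pathway were counted over all mesenchymal cells. Among other secreted antagonists and modulators, 9 of 18 were measured, of which 3 were higher in bleomycin and 2 lower, and the median log2 ratio was -0.05. Of all measured genes, 5.56% were called higher and 5.91% lower. Follistatin (Fst), which binds activins and some BMPs, was at 316.5 CPM in bleomycin and 7.19 CPM in saline cells, a ratio of 44.0 (40.0 to 48.6). It was higher in bleomycin in all 6 compared classes, with ratios between 3.15 in inflammatory and 15.6 in peribronchial cells. The share of all genes called higher in these classes ran from 1.38% (alveolar) to 6.49% (peribronchial). Bmp1, a protease that cleaves procollagen and the antagonist chordin, was at 103 CPM in bleomycin and 26.8 CPM in saline, and Fstl1, a follistatin-like secreted protein, at 1077 CPM in bleomycin and 365 CPM in saline. Chrdl1, a chordin-like antagonist, was at 13.6 CPM in bleomycin and 34.6 CPM in saline, and Twsg1, a chordin partner, at 112 CPM in bleomycin and 226 CPM in saline. Nbl1, an antagonist of the gremlin family with the highest saline level of the list, was at 527 CPM in bleomycin and 1045 CPM in saline, a ratio of 0.504 just outside the rule. At the saline mixture Fst was at a ratio of 6.06, and Bmp1 at 1.89, Fstl1 at 1.68, Twsg1 at 0.752 and Chrdl1 at 1.03.

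Receptors and Smads moved little. Among the 8 of 10 receptors and co-receptors that were measured, Acvrl1 (ALK1) met the rule as lower, at 35.8 CPM in bleomycin and 73.8 CPM in saline, at ratios of 0.486 as measured and 0.706 with the saline mixture. By comparison, the type II receptor Bmpr2 was at 132 CPM in bleomycin and 112 CPM in saline and the type I receptor Bmpr1a at 70.9 CPM in bleomycin and 73.3 CPM in saline. None of the 6 measured Smads and Smad inhibitors was called, and the inhibitor Smad7 had the highest level of them, at 351 CPM in bleomycin and 235.5 CPM in saline. Of the 5 other measured genes that BMP raises in many cells, Runx2 was higher in bleomycin (12.1 CPM, against 1.12 CPM in saline) and so was Msx1 (11.4 CPM, against 4.36 CPM in saline). At the saline mixture the Runx2 ratio was 2.24, against 10.8 before, and that of Msx1 was 1.38, against 2.61. Id3, at 2152 CPM in bleomycin and 2917 CPM in saline, was the highest of that list and was not called. Their median log2 ratios were -0.11 for receptors, 0.17 for Smads and -0.25 for the target list. The counts of calls in these lists stand beside 5.56% of all measured genes called higher and 5.91% lower. Of the 10 other ligands only Gdf10 was measured, at 34.9 CPM in bleomycin and 39.0 CPM in saline.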

How the data were processed

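The authors deposited 1 raw UMI count matrix per library, made from 3′ v3 chemistry libraries per the labels' protocols and with Cell Ranger 6.1.2 on mm10 per the submitters' processing notes. Every value was checked to be whole. Strand use in the counting is not given in the sources used here. Barcodes with at least 500 genes and at most 10% mitochondrial UMIs were kept (10001 bleomycin, 8350 saline). Scrublet in scanpy 1.11.5 marked 66 saline cells, which were removed, and 0 bleomycin cells, where it did not work. Both libraries were clustered together without integration (2000 variable genes, 30 components, 15 neighbours, Leiden resolution 0.5, igraph 0.11.9), with the 65 genes of the pathway lists left out. The 13 clusters were named from 19 marker lists, when at least 3 markers were 1.5-fold up, the median log2 fold was at least 0.5 and a share of at least 0.5 was detected. Epithelial, mesothelial and plasma cell clusters were set aside. UMIs were summed per class and library and scaled to CPM by the sum's own total. Poisson, Clopper-Pearson and conditional binomial intervals were computed at 95% with scipy 1.17.1. For shares, cells were thinned to 2000 UMIs, which left out 200 bleomycin and 157 saline cells of all classes. Because 3′ counting takes 1 tag per molecule, no length correction was made. The size rule was run on simulated data as a self-test of the code, which cannot stand in for variation between libraries. Gene positions came from GENCODE vM21 and upstream windows from RefSeq, which matched 4 of 9 members. Alternatives changed the scaling, filters, doublet handling, clustering, mixture and depth. All members and other measured pathway genes called, or highest in their list, are named. The members and lists were chosen with earlier results of these data known. For likeness of pattern, the 5 genes with the highest correlation were taken, of which 1 for Bmp4 is not reported here.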

Additional observations from a re-analysis of the deposited data

Results flagged for a closer look

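Id1 went in opposite directions in a pair of classes. Its ratio of bleomycin over saline was 3.89 in inflammatory fibroblast-like cells (35.2 CPM in bleomycin, 9.06 CPM in saline) and 0.703 in smooth muscle-like cells (160.3 CPM in bleomycin, 228 CPM in saline). The inflammatory ratio was 2.44 at Leiden resolution 1 and 2.10 with pathway genes kept for clustering. Each class has 1 library per treatment, and this difference was not tested.

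UMIs of several members also appeared in cells that the comparisons set aside, in the cluster led by epithelial genes (187 bleomycin and 108 saline cells). Grem1 was at 17.5 CPM there in bleomycin (32 UMIs, found in 2.67% of these cells) and at 0 UMIs in saline. Bmp5 was at 25.2 CPM in bleomycin and 6.18 CPM in saline. Bambi was at 36.7 CPM in bleomycin and 15.4 CPM in saline. Whether these are free RNA or mixed droplets was not tested.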

How the results depend on the processing

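No paired analysis was possible because each group has 1 library, and for the same reason no library could be left out. Over all mesenchymal cells, 10 alternatives were tried. Weighting bleomycin clusters to the saline mixture left 0 members higher and 0 lower. With cells thinned to 2000 UMIs, and without the proliferating class, 1 member (Bmp3) stayed lower in place of 2. The other 7 alternatives kept Grem1 higher and Bmp3 and Bmp4 lower. The log2 ratio of Grem1 ran between 3.32 and 5.81, that of Bmp3 between -1.57 and -0.44 and that of Bmp4 between -1.05 and -0.35. Bmp7, Bmper and Id1, which were not called, changed sign at the saline mixture alone, the alternative that sets the bleomycin cluster weights to those of saline. By class, the 16 calls became 18 at resolution 1 (15 shared), 14 without the highest doublet scores and 14 with pathway genes kept for clustering (14 shared each). Over all mesenchymal cells, which mix the classes, intervals of the share of cells with a UMI were apart for 9 of 9 members at 2000 UMIs, at 1000 UMIs and with another random seed. At both depths the share was higher in bleomycin for Grem1, Bmper and Id1 and lower for the ligands and Bambi. The share of all genes that would be apart was not computed, so this count shows nothing particular to the members. By class, shares apart at 2000 but not at 1000 UMIs were those of Grem1 and Bambi in peribronchial, Bmp4, Bmp7 and Bambi in adventitial, Bmp3 and Bambi in smooth muscle, and Bmp2 and Bmp3 in alveolar cells. Bmp5 in adventitial cells was apart at 1000 UMIs alone. Few cells limit the saline inflammatory (79) and proliferating (50) classes, and depth the saline peribronchial class (median 3362 UMIs). The fibrotic name covered 2073 bleomycin cells in the main clustering, 1452 at resolution 1 and 3210 with pathway genes kept for clustering. The 21.5% of cells and 72.5% of Grem1 UMIs given for that class hold for the main clustering.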
